A study of Mus musculus with 12 samples.

Results

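The 8 arrays of mouse femoral head cartilage treated with a catabolic agent, 4 with retinoic acid and 4 with IL-1α, were set against the 4 arrays of untreated cartilage. The shared response was taken as the probes that each agent moved against untreated at an adjusted p under 0.05 (limma, Benjamini-Hochberg), and for which the 4 differences within batches, each agent in each batch, all had the same sign. Of the 18200 probes tested, 2580 (14.2%) met this rule, 1139 higher with both agents (1030 gene symbols) and 1441 lower with both (1306 symbols). The adjusted p-values and the 4 differences chose these probes, so their values are given as a description.

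Cartilage is built by chondrocytes, which secrete a network of collagen fibrils and fill it with aggrecan, a proteoglycan whose charged sugar chains hold water. In catabolism the aggrecan and later the collagen are cleaved and lost, and the cells make less new matrix. IL-1α, an inflammatory cytokine, and retinoic acid, a vitamin A derivative that acts through nuclear receptors, are classical agents for provoking this loss in cultured explants, and they reach the nucleus by separate routes.

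All explants came from 21-day-old TS-4/5∆cat mice, which carry in-frame deletions of the exons for the catalytic domains of ADAMTS-4 and ADAMTS-5, the main aggrecanases, so the untreated arrays share that deletion. The explants received no agent, 10 µM retinoic acid or 10 ng/ml IL-1α for 3 days. Each treatment had 2 arrays of the line named Donut, labelled as batch 1, and 2 arrays of the line named Gertrude, labelled as batch 2, so line and batch cannot be told apart. The labels describe 4 hips per well and 24 h in 10% serum before treatment, while the study's methods describe serum-free culture and 3 unpooled mice per treatment. Nothing ties an array to a mouse, so p-values measure the spread between these arrays, which may be partly technical.

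Each bead array reads the brightness of many short probes, given here as log2 of the normalized intensity. Between 13786 and 14965 probes were detected on the arrays of batch 1 and between 16732 and 19485 on those of batch 2, with the most on the untreated replicate 2 array of batch 2. Arrays of the same treatment and batch correlated at 0.983 to 0.995 across the tested probes. Cyp26a1, a retinoic acid-degrading enzyme, exceeded its undetected untreated level by at least 19.2-fold under retinoic acid. Nos2, the inducible nitric oxide synthase, did so by at least 14.1-fold under IL-1α, and each was undetected on the 4 arrays of the other agent. The Adamts5 probe was detected on 1 array and was not tested, and the Adamts4 probe does not show the deletion, because its place in the transcript is not given.

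Against untreated, retinoic acid alone raised 18.2% and lowered 17.1% of the probes, and IL-1α alone raised 15.2% and lowered 14.1%. Taking both agents together, limma called 6219 probes as different from untreated, 3344 of them higher (18.4% of all tested) and 2875 lower (15.8%). The shared response was a smaller set. Its share was 6.26% of all tested probes in the higher direction and 7.92% in the lower, and all of its probes were also called in the pooled comparison. Over the whole set, 44.95% of the rises and 59.33% of the falls remained in it whichever array was left out. Of 150 probes of the set named here or in the lists, mostly chosen for large differences, 34 left it when some 1 array was left out. Of 727 shared symbols with 2 or more tested probes, 165 had every probe in the set. For 21 of the 727, another probe was called the opposite way in the pooled comparison. Of the pooled calls, 2800 (45.0%) also differed between retinoic acid and IL-1α. Slpi, a secreted inhibitor of neutrophil elastase, had a pooled difference of only 0.07 on the log2 scale (adjusted p = 0.870, limma), while its difference from untreated was -2.41 with retinoic acid and 2.54 with IL-1α.

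The falls were larger than the rises. The median pooled log2 difference was -0.83 over the shared falls and 0.66 over the shared rises, beside 0.03 over all probes. Each of the 4 differences reached at least 1 on the log2 scale, a 2-fold change, for 176 falling probes (157 symbols) and 42 rising probes (37 symbols). At 2 or more on this scale there were 21 falling probes and 0 rising ones. Every treated array lay beyond both untreated arrays of its batch for 1200 of the shared falls and 933 of the shared rises. This held for 1501 (8.25%) and 1449 (7.96%) of all tested probes.

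**Figure D1:**
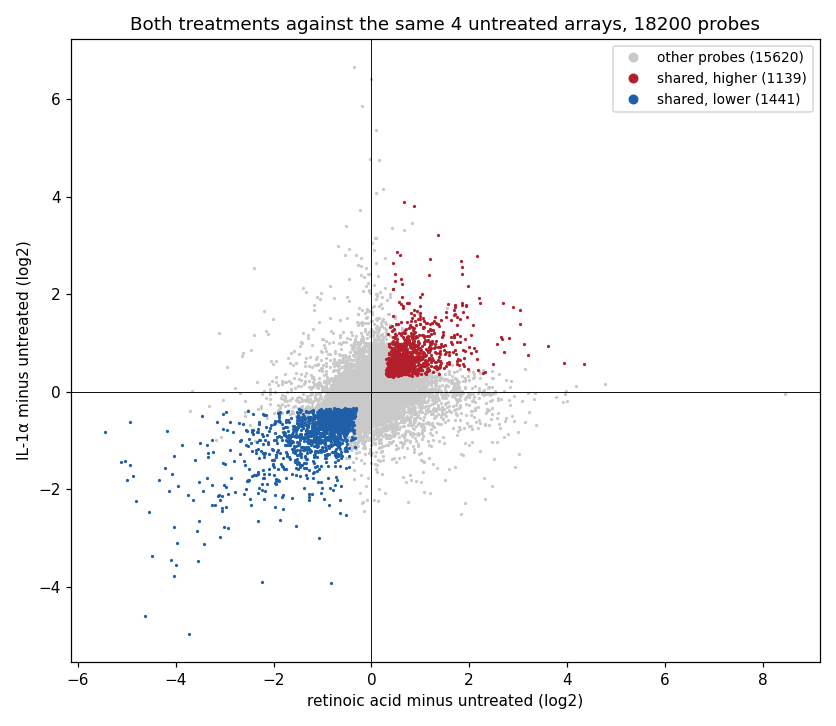
Each point is a probe, placed by its log2 difference from untreated with retinoic acid (horizontal axis) and with IL-1α (vertical axis), with the 1139 shared rises in red, the 1441 shared falls in blue and other probes in grey. Both axes use the same 4 untreated arrays, so a slope between them cannot be read from the plot; the falls reach further from 0 than the rises, and probes moved by only one agent lie along the axes.

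The rising probe nearest to the threshold inside it was LOC100042625, with adjusted p-values of 0.0499 for retinoic acid and 0.00149 for IL-1α, and the nearest outside was AV312086, with 0.050014 and 0.00736. Among the falls, Snurf lay just inside (0.0499 for IL-1α) and LOC269365 just outside (0.0501 for retinoic acid).

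Genes of the cartilage matrix were among the largest shared falls. Acan encodes the aggrecan core protein. Its brightest probe (ILMN_2639818) had untreated values of 13.15 and 13.30 on the batch 1 arrays, and of 13.12 and 13.47 on those of batch 2. With IL-1α they read 11.53, 11.34, 12.04 and 11.90 in the same order, and with retinoic acid 9.06, 9.13, 9.05 and 8.92. The 3 treatments did not overlap, and the retinoic acid arrays were the lowest. The pooled log2 difference of Acan was -2.89 (standard error 0.13), which is 7.43-fold lower, and the fall was larger with retinoic acid than with IL-1α by 2.66 (adjusted p = 3.24e-08, limma). A second Acan probe gave -3.07.

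Hapln1, the link protein that ties aggrecan to hyaluronan, fell in step, with a pooled log2 difference of -2.29 and values of -3.33 with retinoic acid and -1.25 with IL-1α. In batch 1 its untreated arrays read 8.39 and 8.27, those with IL-1α 7.18 and 7.02, and those with retinoic acid 5.01 and 4.96, which were not above background. In batch 2 the same order held at higher levels, with 11.41 and 10.69 untreated, 9.96 and 9.61 with IL-1α, and 7.83 and 7.63 with retinoic acid. Within each batch the 3 treatments did not overlap. Has2, a hyaluronan synthase, was lower by 1.09 with retinoic acid and by 0.46 with IL-1α, and Hapln3 by 0.69 with each, but both left the set when 1 array was left out (IL-1α adjusted p = 0.0828 for Has2 without untreated batch 1 replicate 1 and 0.112 for Hapln3 without untreated batch 2 replicate 1, limma). In all, 4 of 10 tested genes for aggrecan, link proteins and hyaluronan turnover were shared falls and 0 were shared rises, where 8.42% and 6.25% of all 14317 tested genes were. Cd44, the hyaluronan receptor, changed by 0.01 with retinoic acid and rose by 1.65 with IL-1α.

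Among the cartilage collagens and their fibril partners, 10 of 17 tested genes were shared falls and 0 were shared rises, with a median pooled difference of -1.23 against 0.02 over all tested genes. The pooled comparison called 15 of the 17 lower and 0 higher, where it called 16.7% and 18.5% of all genes. Matn1, a matrilin that bridges collagen fibrils and aggrecan, showed the widest gap. Its arrays read 13.20, 13.35, 13.52 and 13.37 untreated, 11.24, 11.16, 11.91 and 11.89 with IL-1α, and 8.38, 8.15, 8.46 and 8.43 with retinoic acid, with no overlap. Its pooled log2 difference was -3.41. The minor fibrillar and fibril-associated collagens fell with it, by 1.35 for Col11a2, by 1.65 for Col9a2 and by 2.04 for Col9a1. Comp, a pentameric fibril-binding protein, did not enter the shared set, at -2.25 with retinoic acid and -0.29 with IL-1α.

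The probes of Col2a1, the gene of the main cartilage collagen, gave different answers. The brightest (ILMN_1246054) read 14.01, 13.66, 13.08 and 13.62 untreated, 11.95, 11.82, 12.41 and 12.52 with retinoic acid, and 13.51, 13.39, 13.15 and 13.53 with IL-1α. The untreated values lie near the highest normalized value of any probe, 14.24. The IL-1α arrays overlapped the untreated ones, with a difference of -0.20 (adjusted p = 0.468, limma). By the exact permutation test over every assignment of arrays within batches, two-sided, the pooled difference of -0.81 had p = 0.0667. That test takes both agents as 1 arm, while limma, with the agents apart, called the difference lower (adjusted p = 0.00217). A dimmer probe (ILMN_1232946), at 10.80 and 10.67 untreated in batch 1 and 12.84 and 13.01 in batch 2, was lower by 4.93 with retinoic acid and by 0.63 with IL-1α and was in the shared set. Its pooled difference was -2.78 (adjusted p = 3.19e-09, limma). The third (ILMN_2759142) had a pooled difference of -0.95 (adjusted p = 0.0043, limma) and was not in the set, with -0.07 for IL-1α.

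**Figure D2:**
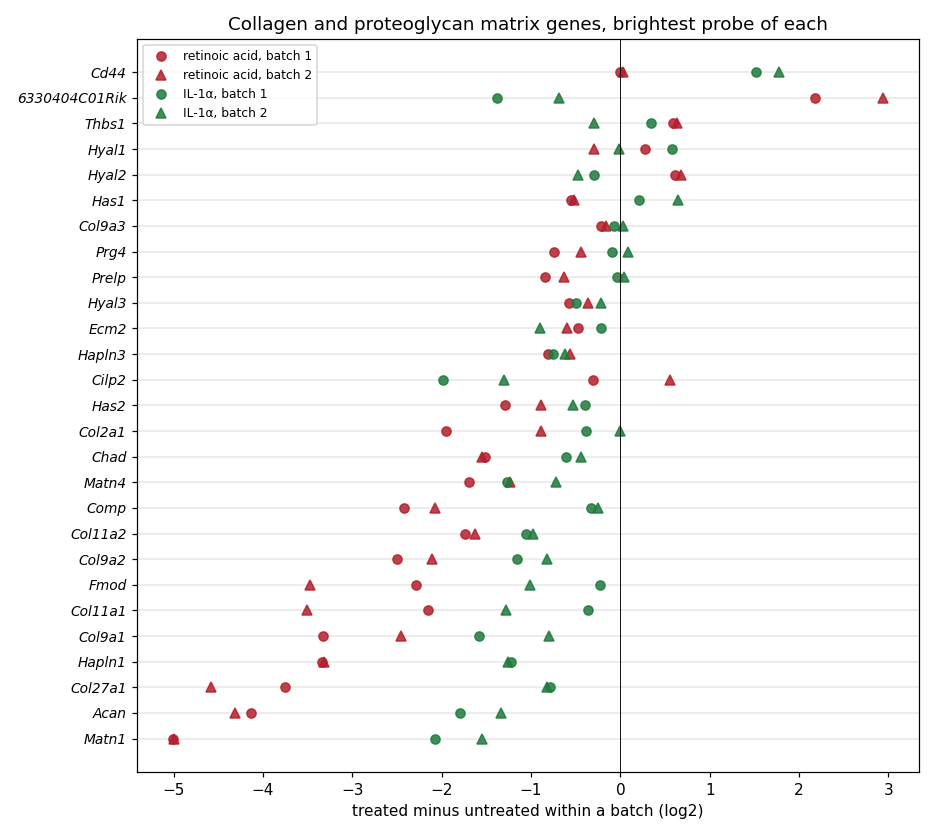
Log2 difference from untreated within a batch for each tested gene of the collagen and proteoglycan lists, by its brightest probe, with retinoic acid in red, IL-1α in green, batch 1 as circles and batch 2 as triangles. From Matn1 (-3.41 pooled) and Acan (-2.89) to Chad (-1.03) all 4 marks lie below 0 for every gene, while Has1 and 6330404C01Rik (RefSeq Cemip) lie on opposite sides with the 2 agents.

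Secreted products of chondrocytes outside the fibril network fell as well, in 8 of 11 tested genes, again with 0 rising. Over all genes 8.42% fell and 6.25% rose with both agents. Cytl1, a small secreted protein made by chondrocytes, read 13.66, 13.68, 13.79 and 13.73 untreated and between 9.77 and 10.73 on all 8 treated arrays. Untreated and treated arrays were far apart, and retinoic acid and IL-1α overlapped, with a difference of -0.08 between them (adjusted p = 0.839, limma). The pooled difference of -3.51 is 11.4-fold lower. C1qtnf3, a secreted C1q-family protein of cartilage, fell further with IL-1α (-4.96) than with retinoic acid (-3.73), the reverse of Acan. Its untreated arrays read 10.39 to 10.90, its retinoic acid arrays 6.84 to 7.13 and its IL-1α arrays 5.61 to 5.96. A second C1qtnf3 probe (ILMN_2760318), also in the set, moved less, at -1.46 with retinoic acid and -1.73 with IL-1α. Scrg1, Clec3a, Wif1 and Gdf10, of the same list as Cytl1, were lower by 3.09, 2.56, 2.13 and 1.57. Gdf10 had an adjusted p for retinoic acid of 0.0594 (limma) without untreated batch 1 replicate 2. Clec3a was above background on 2 of 4 retinoic acid arrays. Chi3l1, a secreted chitinase-like protein, had a pooled difference of 0.10 (adjusted p = 0.499, limma).

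Itih5l had the largest weakest difference of all shared falls, -3.92 over the 4 comparisons within batches. RefSeq names it Itih5l-ps, and it belongs to the family of inter-alpha-trypsin inhibitor heavy chains. Its arrays read 10.47, 10.19, 9.47 and 10.01 untreated, 5.93, 5.55, 5.03 and 5.10 with retinoic acid, and 4.99, 5.09, 5.57 and 6.08 with IL-1α. Above background it was found on 3 of 4 arrays under retinoic acid and 2 of 4 under IL-1α, so the pooled 24.5-fold fall is near the lower end of what the array can read.

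Genes for making the matrix, as well as the matrix itself, were among the falls. Of 26 tested genes for glycosaminoglycan synthesis and sulfation, 8 were shared falls and 2 shared rises, beside 8.42% and 6.25% of all genes. Papss2, which makes the sulfate donor for aggrecan's chains, was lower by 1.83, with arrays at 11.85 to 12.65 untreated, 10.81 to 11.38 with IL-1α and 9.71 to 10.05 with retinoic acid. Chst11, a chondroitin sulfotransferase, and Glce, an epimerase of heparan sulfate, were lower by 1.13 and 0.93. The rises were Ext1, a heparan sulfate polymerase, by 0.73 and B3gat3, an enzyme of the linkage region common to both chain types, by 0.48, whose adjusted p for IL-1α was 0.143 (limma) without untreated batch 2 replicate 2.

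Procollagen processing, modification and crosslinking had 10 shared falls and 1 shared rise among 24 tested genes, beside 8.42% and 6.25% of all genes. Pcolce2 enhances the removal of the procollagen C-propeptide. Its probe of largest weakest difference (ILMN_1238603) read 8.76, 8.77, 11.31 and 11.24 untreated, 5.35, 4.62, 7.12 and 6.82 with retinoic acid, and 5.21, 5.58, 9.02 and 9.16 with IL-1α. In each batch every treated array was below both untreated ones, with 2 of 4 under retinoic acid and 3 of 4 under IL-1α above background. Adamts3, which cleaves the procollagen N-propeptide, read 7.03, 7.17, 6.14 and 6.32 untreated and 6.12, 6.07, 5.23 and 5.19 with retinoic acid, and was undetected on all 4 IL-1α arrays, at least 2.66-fold below untreated. Sparc and Loxl4, a collagen-binding glycoprotein and a lysyl oxidase, were lower by 1.76 and 1.36. Lox, the founding lysyl oxidase, was the rise, by 0.53, with an adjusted p for retinoic acid of 0.136 (limma) without its batch 2 replicate 1 array.

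Of 28 collagens and fibre proteins of other connective tissues, 11 were shared falls and 0 shared rises, beside 8.42% and 6.25% of all genes. Among the falls were Col3a1 by 1.91, Col8a2 by 1.25, Col1a2 by 1.24 and Col22a1, which was undetected with IL-1α and at least 3.67-fold lower. With retinoic acid Col3a1 was above background on 2 of 4 arrays, and Col8a2 and Col1a2 on 3 of 4 each. With IL-1α Col3a1 and Col8a2 were above background on 2 of 4 each. Of 8 small leucine-rich proteoglycans, 3 (37.5%) were shared falls. Omd, osteomodulin, had arrays at 10.07 and 10.23 untreated in batch 1, 5.98 and 6.14 with retinoic acid and 5.62 and 5.22 with IL-1α, and at 12.53 and 12.49, 8.63 and 8.45, and 9.67 and 9.71 in batch 2. Lum, lumican, and Fmod, fibromodulin, were lower by 1.56 and 1.75, each above background on 2 of 4 retinoic acid arrays. Fmod had an adjusted p for IL-1α of 0.172 (limma) without untreated batch 2 replicate 1. Dcn and Ogn were not in the shared set, at -0.10 and -0.81 (adjusted p = 0.489 and 0.104, limma).

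**Figure D3:**
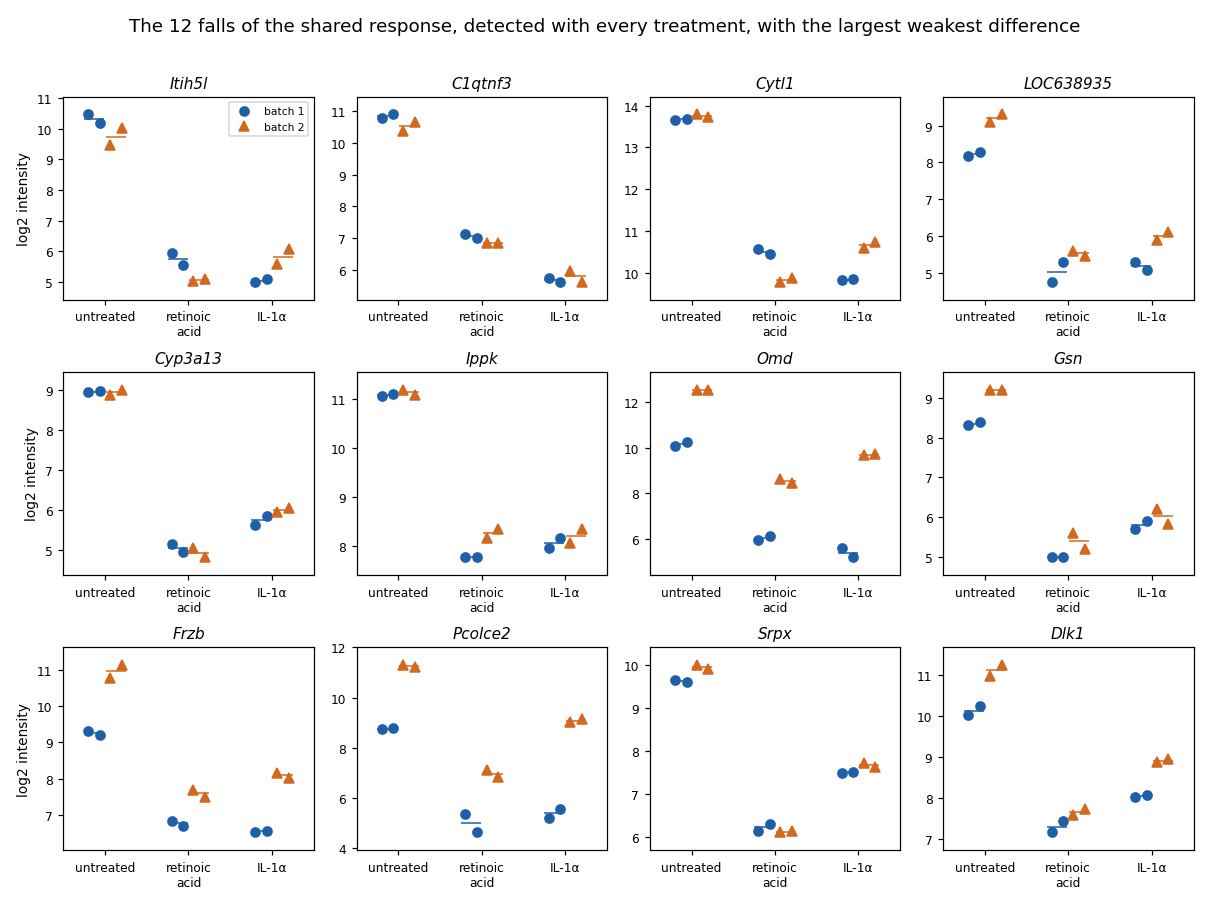
Log2 intensity on each of the 12 arrays for the 12 falls of the shared response with the largest weakest difference among genes detected on at least 1 array of every treatment, with batch 1 as blue circles, batch 2 as orange triangles and a line at the mean of 2 arrays. In every panel the treated arrays of a batch lie below the untreated arrays of that batch, for example at 9.77 to 10.73 against 13.66 to 13.79 for Cytl1.

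The other leading falls had varied roles. Ippk makes inositol hexakisphosphate, and its arrays read 11.06 to 11.19 untreated and 7.77 to 8.35 on all treated arrays, an 8.18-fold fall with no difference between the agents past the threshold (-0.12, adjusted p = 0.531, limma). Gsn, gelsolin, an actin-severing protein, was lower by 3.20 on 1 probe (ILMN_2679386) and by 0.21 on another (ILMN_2605645), which was not called (adjusted p = 0.286, limma). Srpx, a secreted sushi-repeat protein, and Dlk1, a membrane protein of the Notch ligand family, were lower by 2.93 and 2.64. Cyp3a13, a cytochrome P450, was lower by 3.53, and a second probe of it was undetected with retinoic acid, at least 5.57-fold lower. LOC638935, with no gene name in the RefSeq table, was lower by 3.27 and above background on 2 of 4 arrays with each agent. With retinoic acid the first Cyp3a13 probe was above background on 1 of 4 arrays and the Gsn probe ILMN_2679386 on 2 of 4. These 3 falls are therefore near the lower end of what the array can read. Bounds were also needed with retinoic acid for Cmtm5 (at least 15.6-fold lower), Sfrp5 (at least 9.64-fold) and Il17d (at least 8.45-fold), all undetected on its 4 arrays. In all, 177 of the shared falls were undetected on every array of at least 1 agent.

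Of 28 tested genes of Wnt and hedgehog signalling, 11 (39.3%) were shared falls and 0 were shared rises, where 8.42% and 6.25% of all genes were. They included the secreted Wnt antagonists Frzb, Wif1 and Sfrp5. Frzb read 9.30, 9.21, 10.78 and 11.14 untreated, 6.84, 6.69, 7.69 and 7.49 with retinoic acid, and 6.51, 6.57, 8.15 and 8.02 with IL-1α, so that each treated array lay below all 4 untreated ones. Ihh, the hedgehog ligand of prehypertrophic chondrocytes, was at 7.49 to 8.08 untreated, 5.81 to 6.02 with retinoic acid and 5.03 to 5.50 with IL-1α, where 2 of 4 arrays were above background. The Wnt ligand Wnt5a was not in the set, with a pooled difference of -0.33 (adjusted p = 0.160, limma), and Wnt4 moved in opposite directions, up with retinoic acid (adjusted p = 0.00862, limma) and to undetected with IL-1α (adjusted p = 0.00278, limma).

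Of 15 chondrocyte transcription factors, 4 (26.7%) were shared falls and 2 (13.3%) were shared rises, beside 8.42% and 6.25% of all genes. Sox9, the master regulator of chondrocytes, was lower by 1.91 with retinoic acid and by 0.44 with IL-1α. Its arrays read 12.88 to 13.43 untreated, 12.44 to 12.88 with IL-1α and 11.09 to 11.39 with retinoic acid, and within each batch every treated array was below both untreated ones. Mef2c, Foxa3 and Gli2 were lower by 1.40, 1.46 and 0.81, while Runx1, a Runt factor of early chondrogenesis and blood cells, rose by 1.41 and Zfp219, a Sox9 partner, by 0.65. Only Mef2c and Runx1 of these 6 remained in the set whichever array was left out. The IL-1α difference of Sox9 had an adjusted p of 0.0598 without IL-1α batch 1 replicate 2 and of 0.0565 without untreated batch 1 replicate 2 (limma). Those of Foxa3, Gli2 and Zfp219 reached 0.164, 0.0624 and 0.0772 (limma) without IL-1α replicate 2, untreated replicate 1 and IL-1α replicate 1 of batch 1. The probes of the partners Sox5 and Sox6 disagreed. The brightest were at -0.57 and -0.26 and not in the set, and a dimmer one of each was in it, at -0.79 and -1.16.

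Hypertrophy and mineralisation genes gave 7 shared falls and 0 shared rises among 16 tested, beside 8.42% and 6.25% of all genes. Col10a1, the collagen of hypertrophic cartilage, was lower by 1.85, Ibsp, bone sialoprotein, by 2.75, and Panx3, a pannexin channel of hypertrophic cells, had a pooled difference of -3.51. Col10a1 arrays read 11.61, 11.86, 13.12 and 13.26 untreated, 9.91, 9.90, 11.10 and 10.97 with retinoic acid, and 10.23, 10.18, 11.43 and 11.18 with IL-1α, and the agents did not differ past the threshold (adjusted p = 0.112, limma). Spp1, osteopontin, had a pooled rise of 0.46 and was outside the set, with an adjusted p of 0.0864 for IL-1α (limma), and Mgp, a mineralisation inhibitor, stood at 0.03 (adjusted p = 0.865, limma). Among growth factor receptors, Fgfr3 was lower by 1.06 with retinoic acid and 1.04 with IL-1α, Ghr, the growth hormone receptor, by 1.08 over both, and the insulin receptor substrate Irs1 by 1.20. The brightest Fgfr2 probe was lower by 0.74, with an adjusted p for IL-1α of 0.131 (limma) without untreated batch 1 replicate 1, while a dimmer one was a shared rise, by 0.65. Where 8.42% of all genes were shared falls, the FGF and CCN list had 4 of 14 (28.6%), the insulin-like growth factor list 3 of 15 (20%) and the BMP, TGF-beta and activin list 5 of 33 (15.2%). The last had 2 rises (6.06%, beside 6.25% of all genes), Tgfb2 by 0.51 and Gdf5 by 0.51, and Gdf5 had an adjusted p for IL-1α of 0.129 (limma) without IL-1α batch 2 replicate 1.

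Chondrocyte markers as a whole were lower in 10 of 13 tested genes, and their summed linear intensity was 78675 to 97949 on the untreated arrays, 46072 to 64723 with IL-1α and 15810 to 22761 with retinoic acid. Matn3 was undetected on every array. In bulk tissue, fewer chondrocytes and less RNA per chondrocyte cannot be told apart. Of 15 cytosolic ribosomal protein genes 1 was a shared fall, Rpl28 by 0.54, and of 31 respiratory chain genes 2 were shared rises and 1 was a shared fall, where 6.25% of all genes rose and 8.42% fell.

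The leading shared rise was Mmp10, stromelysin-2, which cleaves proteoglycans and activates procollagenases. Its arrays read 5.97, 6.15, 5.49 and 5.40 untreated, 8.39, 8.39, 7.56 and 7.29 with retinoic acid, and 8.82, 8.88, 8.33 and 8.16 with IL-1α. All 8 treated arrays were above all 4 untreated ones, and within each batch IL-1α was above retinoic acid. The pooled difference of 2.47 (standard error 0.10) is 5.56-fold, and the smallest of the 4 differences was 1.98. The retinoic acid effect was below that of IL-1α by 0.64 (adjusted p = 0.00116, limma).

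Of 12 tested matrix metalloproteinases, 2 (16.7%) were shared rises, Mmp10 and Mmp9, and 1 (8.33%) was a shared fall, Mmp16, where 6.25% and 8.42% of all genes were. Mmp9, gelatinase B, rose by 1.58 with retinoic acid and by 0.61 with IL-1α, with untreated arrays at 11.46 to 11.75 and treated ones at 11.86 to 13.30. Mmp16, a membrane-type enzyme, was undetected with IL-1α, at least 1.57-fold lower, and was lower by 0.41 with retinoic acid, a difference with an adjusted p of 0.1002 (limma) without retinoic acid batch 2 replicate 2. A second Mmp16 probe (ILMN_1249063) was outside the set, at -0.14 with retinoic acid and -0.66 with IL-1α. The brightest Mmp13 probe stood at a mean of 13.83 untreated, near the ceiling, with a pooled difference of 0.11, while a dimmer one (ILMN_1249336), picked out after its values were seen, rose by 1.81 with retinoic acid and 1.15 with IL-1α and was in the set. Of 9 tested ADAMTS proteinases of the aggrecanase list, 0 were shared in either direction by the rule, while limma called 4 higher and 2 lower in the pooled comparison, where it called 18.5% and 16.7% of all genes. In a list this short, 0 shared genes is not a result about the list. The Adamts4 difference was 0.36 with retinoic acid and -0.12 with IL-1α, with a pooled value of 0.12 (two-sided exact permutation test over every assignment within batches, p = 0.498).

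Among 26 other matrix-degrading proteinases there were 2 shared rises (7.69%) and 5 shared falls (19.2%), where 6.25% and 8.42% of all genes were. The rises were Ctsk, cathepsin K, by 0.56 and Plaur, the urokinase receptor, by 0.58. The largest of the falls were Capn6, a calpain-like protein, by 1.81 and Htra4, a serine proteinase, by 1.54. Ctsk left the set without untreated batch 1 replicate 1 (IL-1α adjusted p = 0.0977, limma) and Plaur without retinoic acid batch 1 replicate 1 (retinoic acid adjusted p = 0.0682, limma). Proteinase inhibitors went both ways, with 3 shared rises (17.6%) and 4 shared falls (23.5%) of 17, beside the same shares of all genes. By its brightest probe (ILMN_2741096), Timp3, the inhibitor of metalloproteinases and aggrecanases that binds to the matrix, was lower by 1.43 with retinoic acid and by 0.36 with IL-1α, with arrays at 12.76 to 13.44 untreated, 12.32 to 13.17 with IL-1α and 11.34 to 12.01 with retinoic acid. The untreated and IL-1α arrays overlapped over both batches and not within either, and without IL-1α batch 1 replicate 2 the adjusted p for IL-1α was 0.107 (limma). The probes of Timp3 disagreed, with 1 (ILMN_2614759) outside the set at -0.73 and another (ILMN_1232928) called higher in the pooled comparison, by 0.69 (adjusted p = 0.0369, limma). Serpina3n and Reck were lower by 1.90 and 0.54, with an adjusted p for retinoic acid of 0.0952 (limma) for Reck without retinoic acid batch 2 replicate 2, and Wfdc2 and Serping1, the C1 inhibitor, rose by 0.93 and 0.70.

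**Figure D4:**
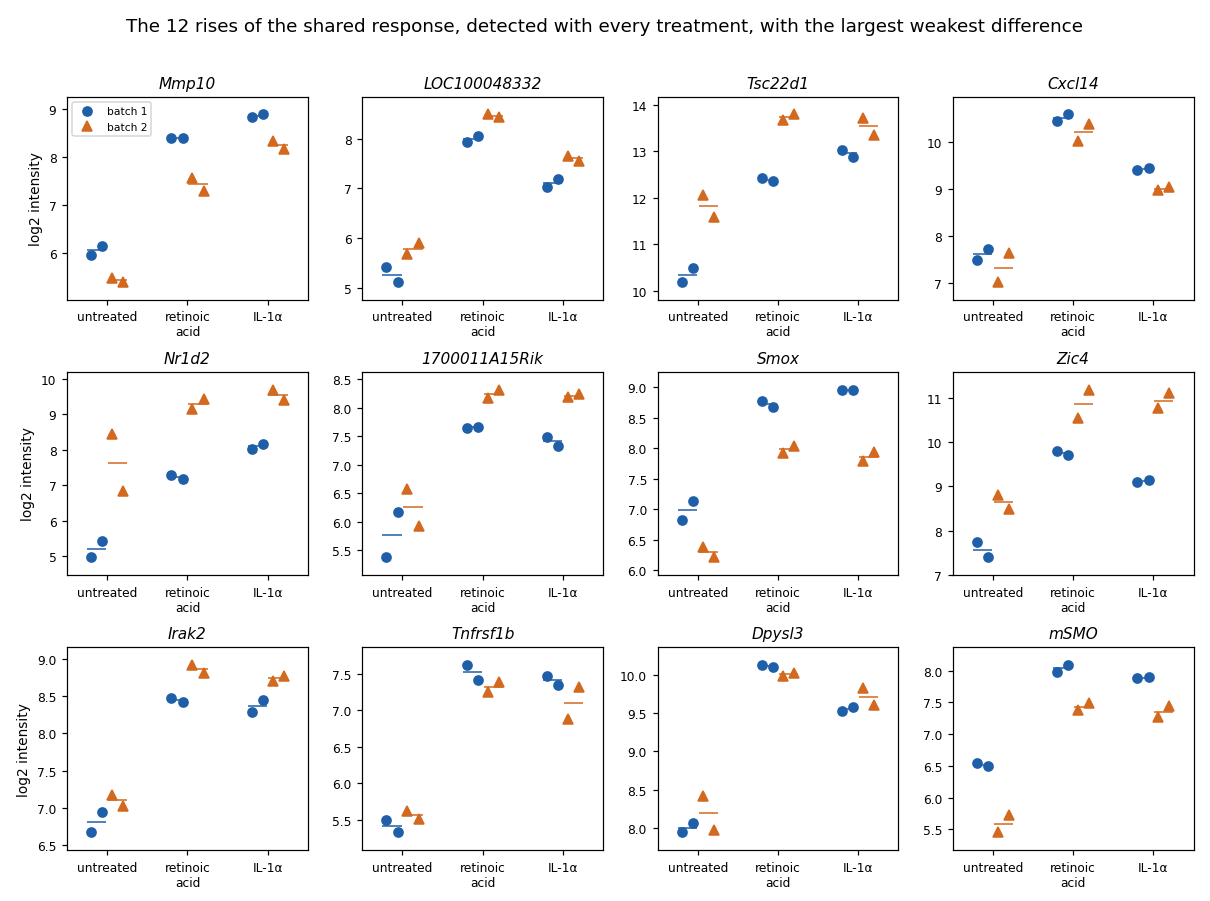
Log2 intensity on each of the 12 arrays for the 12 rises of the shared response with the largest weakest difference among genes detected on at least 1 array of every treatment, with batch 1 as blue circles, batch 2 as orange triangles and a line at the mean of 2 arrays. In every panel the treated arrays of a batch lie above the untreated arrays of that batch, and for Nr1d2 the untreated arrays of batch 2 (8.44 and 6.83) overlap the treated arrays of batch 1.

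Of 28 tested chemokine and cytokine genes, 8 (28.6%) were shared rises and 1 (3.57%) was a shared fall, where 6.25% and 8.42% of all genes were. Cxcl14, a chemokine of epithelia and connective tissue, read 7.49, 7.72, 7.01 and 7.63 untreated, 10.45, 10.59, 10.03 and 10.39 with retinoic acid, and 9.41, 9.44, 8.97 and 9.03 with IL-1α. The 3 treatments did not overlap, and retinoic acid gave the larger rise by 1.15 (adjusted p = 7.56e-06, limma). Il11, an IL-6 family cytokine, was at 5.93 to 6.21 untreated and 7.20 to 8.17 treated, with no overlap and a pooled rise of 1.65.

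Il1b and Ccl3 rose more in batch 1 than in batch 2. Il1b read 5.34, 5.72, 4.92 and 4.79 untreated, detected on 2 of 4 arrays, then 8.42, 7.99, 5.84 and 5.84 with retinoic acid and 8.63, 8.64, 7.09 and 7.18 with IL-1α. Its pooled difference was 2.89 in batch 1 and 1.63 in batch 2 (adjusted p for the difference 0.0136, limma). That of Ccl3, macrophage inflammatory protein 1α, was 2.84 and 1.57 (adjusted p = 0.0226). Tnfrsf11b, osteoprotegerin, a decoy receptor that restrains osteoclasts, was the shared fall of the list, by 1.61. Other chemokines lay outside the set, among them Cxcl1, at 3.47 with IL-1α and 0.84 with retinoic acid, and Ccl2, at 1.44 and -1.08.

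Irak2 and Tnfrsf1b were also shared rises. Irak2, a kinase that relays IL-1 and Toll-like receptor signals, read 6.67, 6.95, 7.18 and 7.03 untreated, 8.48, 8.43, 8.92 and 8.81 with retinoic acid, and 8.29, 8.45, 8.71 and 8.77 with IL-1α. Tnfrsf1b, a TNF receptor, read 5.33 to 5.62 untreated and 6.88 to 7.62 treated on 1 probe (ILMN_2485839), while another (ILMN_1236444) was higher by 0.46 and outside the set. For both genes the treated and untreated arrays did not overlap and the agents did not differ past the threshold (adjusted p = 0.528 and 0.389, limma). Of 26 NF-kappaB and prostaglandin genes, 7 (26.9%) were shared rises and 1 (3.85%) was a shared fall, beside 6.25% and 8.42% of all genes. The rises included Tnfaip3, a brake on NF-kappaB, by 1.12, Tlr4 by 1.02, Bcl3 by 1.07 and Ptges, which makes prostaglandin E, by 1.47, and the fall was Ptgis, which makes prostacyclin, by 1.54. A second Tlr4 probe (ILMN_2684234) was outside the set, at 1.16 with retinoic acid and 0.35 with IL-1α.

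Of 22 acute-phase and complement genes, 2 (9.09%) were shared rises and 3 (13.6%) were shared falls, where 6.25% and 8.42% of all genes were. C2 rose by 1.37, from 6.90 to 7.13 untreated to 7.99 to 8.85 treated, and Steap4, a metalloreductase, by 0.66 with retinoic acid and 3.90 with IL-1α. Steap4 was above background on 2 of 4 untreated and 2 of 4 retinoic acid arrays, and without untreated batch 2 replicate 1 its adjusted p for retinoic acid was 0.216 (limma). A second Steap4 probe (ILMN_2657297) was outside the set, at 0.12 with retinoic acid and 1.15 with IL-1α. Cfd, complement factor D, and Cd59a, a complement regulator, were lower by 2.01 and 1.39. The third fall, C4a, has a near-identical paralog and is uncertain.

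Immediate-early and stress genes held the highest share of rises among the 32 pathway lists, 12 of 25 (48%), with 1 fall. Over all genes 6.25% rose and 8.42% fell with both agents. Ier3, an early response gene, read 12.35, 12.37, 12.05 and 11.71 untreated and 13.33 to 13.66 treated, near the highest normalized value, with a rise of 1.36. Egr1, an early zinc-finger factor, was at 7.90 to 8.73 untreated and at 8.99 to 10.65 treated. Cebpb, a factor of inflammation and differentiation, rose by 1.19, from 10.76 to 11.16 up to 11.74 to 12.39, with no overlap. Gadd45a, a stress and growth-arrest gene, rose by 2.82 with retinoic acid and 1.11 with IL-1α, and the treatments did not overlap. Klf2 was the fall, by 1.57, and Fos and Atf3 were not called in the pooled comparison, at 0.40 and 0.51 (adjusted p = 0.303 and 0.170, limma).

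RefSeq promoter windows (GRCm38.p6, 250 bases before to 50 after a gene's start) were matched to 719 of the 1030 rising symbols, 851 of the 1306 falling ones and 8684 of the 14317 tested. The AP-1 motif, TGANTCA on either strand, through which Jun and Fos proteins bind, was in 9.32% of the rising windows, 6.46% of the falling, 6.53% of the tested and 8.97% of all genes of the table. The nuclear receptor half-site AGGTCA, on either strand, was found for 17.2% of the rising genes, 12.7% of the falling, 14.4% of the tested and 18.1% of all genes of the table. Matches to the 2 motifs overlapped in 16 of 32851 windows. Named genes with AP-1 letters upstream of their start, a pair of rises and a pair of falls, are shown by the 150 bases before the start, 5′ to 3′ on the gene's strand, with the match in capitals.
Mmp10 (rise, chr9:7502192-7502341, + strand): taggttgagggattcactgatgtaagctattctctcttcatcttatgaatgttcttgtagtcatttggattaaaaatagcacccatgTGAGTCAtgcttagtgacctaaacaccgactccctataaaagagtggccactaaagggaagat
Il11 (rise, chr7:4778142-4778291, - strand): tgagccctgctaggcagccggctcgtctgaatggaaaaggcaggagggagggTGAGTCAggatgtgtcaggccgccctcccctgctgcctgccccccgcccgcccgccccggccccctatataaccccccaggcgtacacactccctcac
Cyp3a13 (fall, chr5:137921620-137921769, - strand): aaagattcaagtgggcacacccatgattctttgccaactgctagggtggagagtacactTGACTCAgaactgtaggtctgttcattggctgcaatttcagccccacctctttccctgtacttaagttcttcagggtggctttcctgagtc
Ippk (fall, chr13:49421092-49421241, + strand): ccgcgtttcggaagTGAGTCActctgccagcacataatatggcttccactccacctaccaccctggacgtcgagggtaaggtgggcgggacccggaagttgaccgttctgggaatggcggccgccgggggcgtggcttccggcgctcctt
Counted from the start that each stretch precedes, the match begins at -63 in Mmp10, -98 in Il11, -91 in Cyp3a13 and -136 in Ippk. The same letters thus stand before genes that moved in opposite directions. Il11 and Ippk each have another listed start, with no AP-1 match upstream of it in its window. A match is a description of the letters and not a binding site.

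Further leading rises came from other families. Tsc22d1, a leucine-zipper factor, rose by 2.08, from 10.18 to 12.05 untreated to 12.35 to 13.79 treated. Smox, spermine oxidase, which breaks down a polyamine and yields hydrogen peroxide, read 6.83, 7.14, 6.38 and 6.21 untreated and 7.79 to 8.96 treated, a rise of 1.74 with no overlap, and its other 3 tested probes rose by 1.55 to 1.82. The probe annotated mSMO, which the RefSeq table does not name, rose by 1.62. Nr1d2, a clock repressor of the nuclear receptor family, rose by 2.13, with untreated arrays at 4.98 and 5.43 in batch 1 and 8.44 and 6.83 in batch 2. Zic4, a zinc-finger factor of development, rose by 2.07, and Dpysl3, a cytoskeletal protein, by 1.75. 1700011A15Rik, which RefSeq names Krt88, rose by 1.86, and LOC100048332, without a name, by 2.26. Kcnj15, an inward rectifier potassium channel, was undetected on all 4 untreated arrays and at least 2.61-fold higher with retinoic acid and 2.58-fold higher with IL-1α. A second Kcnj15 probe (ILMN_2683689) was higher by 0.68 in the pooled comparison and outside the set. The bounds of Tns4, Tgm1 and Aoc2 were smaller, at 1.41-fold to 1.96-fold, and in all 32 shared rises were undetected untreated.

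**Figure D5:**
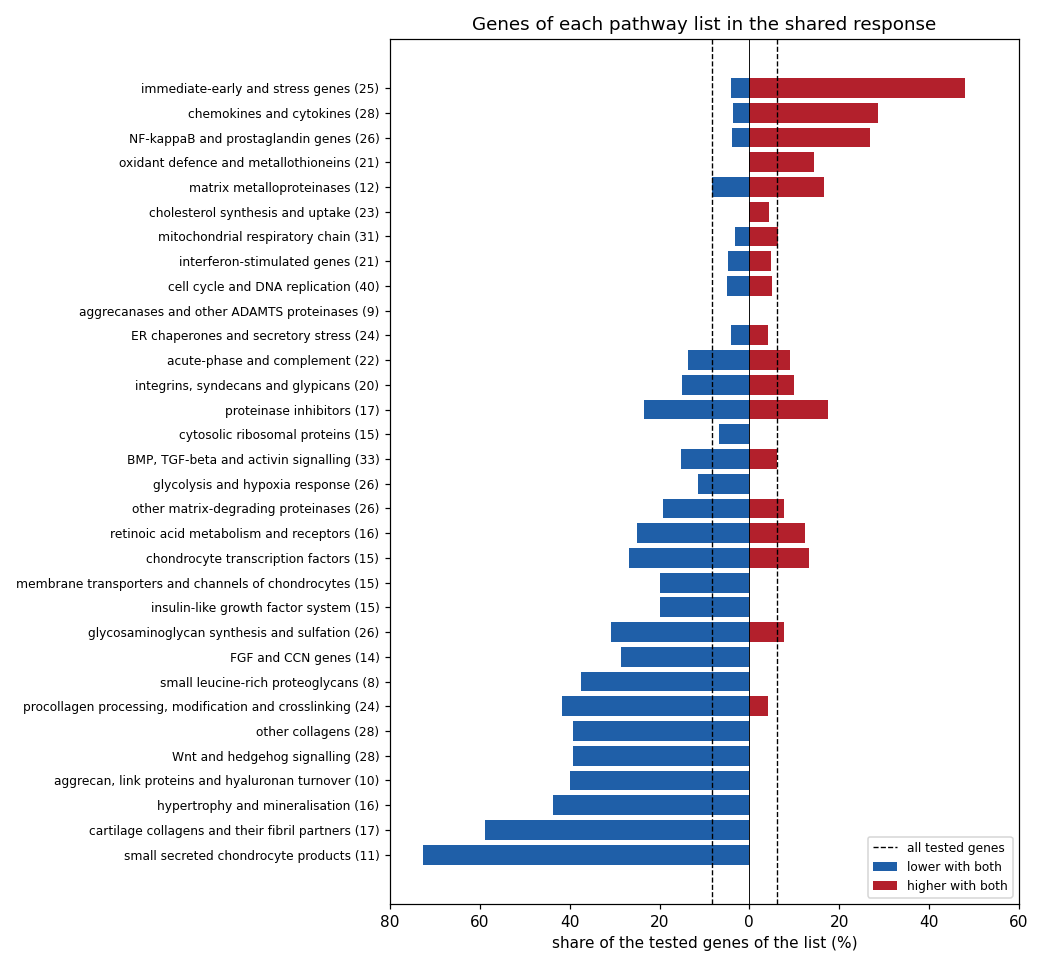
Share of the tested genes of each of the 32 pathway lists (number in brackets; lists of cell type markers are not drawn) that were higher with both agents (red, to the right) or lower with both (blue, to the left), with dashed lines at the shares over all 14317 tested genes, 6.25% and 8.42%. Of the pathway lists drawn, small secreted chondrocyte products, cartilage collagens and hypertrophy genes reach furthest to the left, and immediate-early, chemokine and NF-kappaB genes furthest to the right.

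Of 16 genes of retinoic acid metabolism and receptors, 2 (12.5%) were shared rises and 4 (25%) were shared falls, where 6.25% and 8.42% of all genes were. Cyp26b1, a retinoic acid hydroxylase, rose by 3.94 with retinoic acid, whose arrays read 13.28 to 14.24, the last at the top of the scale, and by 0.59 with IL-1α, whose arrays at 10.10, 10.29, 10.69 and 10.53 each lay above both untreated arrays of their batch (9.44 and 9.25, 10.23 and 10.31). Tgm2, tissue transglutaminase, rose by 1.46 and 1.17. Rbp4, a retinol carrier, Dhrs9, a retinol dehydrogenase, Aldh1a3, a retinal dehydrogenase, and Rarres1 were lower with both agents. The retinoic acid differences were -1.75, -1.70, -0.84 and -2.67 in that order, and those of IL-1α were -1.24, -0.58, -0.59 and -0.99. Rbp4 was above background on 3 of 4 arrays with each agent and Dhrs9 on 2 of 4 with retinoic acid. Aldh1a3 was above background on 2 of 4 arrays of each treatment, those of batch 2, so its batch 1 differences (-0.42 and -0.02) lie below what the array can read. Without untreated batch 2 replicate 2 its adjusted p for IL-1α was 0.177, and that of Dhrs9 was 0.118 without untreated batch 1 replicate 1 (limma). Rarb, a retinoic acid receptor, was at 2.92 and -0.08.

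The markers of other cell types were examined beside the inflammatory rises. Over all 14317 tested genes 6.25% were shared rises and 8.42% were shared falls. Of the 14317, 2667 were higher and 2590 lower with retinoic acid, and 2167 were higher and 2150 lower with IL-1α (limma). Of 9 tested macrophage markers 2 were shared rises, Cd14 by 1.97 and Cd68 by 0.85. With retinoic acid 6 of the 9 were higher and 0 lower, while with IL-1α 2 were higher and 6 lower (limma). Among them, C1qa, C1qb and C1qc rose with retinoic acid by 1.20 to 1.51 and fell with IL-1α by 1.49 to 2.08. The summed linear intensity of the macrophage markers was 6434 to 7971 untreated, 9438 to 10647 with retinoic acid and 5213 to 8967 with IL-1α, and Cd163 was undetected. Of 5 osteoclast markers 2 were shared rises, with sums of 1982 to 5307 untreated, 3282 to 7655 with retinoic acid and 3997 to 5690 with IL-1α, and Calcr undetected. Of the neutrophil (9 tested), erythroid (3) and endothelial (6) markers, 0 were shared. In the pooled comparison limma called 0, 0 and 2 of them, where it called 18.5% of all genes higher and 16.7% lower. Against untreated, 6 of the 9 neutrophil markers were lower with retinoic acid and 0 differed with IL-1α. Neutrophil sums were 9971 to 17544 untreated, 6074 to 15327 with retinoic acid and 17482 to 18697 with IL-1α, so the agents overlapped the untreated arrays and not each other, and the part of these cells in the rises was not tested. Osteoblast markers were lower in 3 of 4, with sums of 7560 to 9010 untreated and 1563 to 3793 treated, and both tested adipocyte markers, Cfd and Adipoq, were lower.

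Retinoic acid and IL-1α differed for 499 of the 1441 shared falls (34.6%), where 31.1% of all probes did, and in 420 of these retinoic acid was the lower. Of the shared rises 262 (23.0%) differed, 151 larger with retinoic acid and 111 larger with IL-1α. The median log2 difference from untreated over the shared falls was -0.91 with retinoic acid and -0.73 with IL-1α, and over the shared rises 0.64 and 0.63. Over the 17 cartilage collagens and fibril partners the medians were -1.53 and -0.62.

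The pooled effect differed between the batches for 454 probes (2.49%; 3070 at an unadjusted p under 0.05, limma), among them 41 (3.60%) of the shared rises and 72 (5.00%) of the shared falls. On simulated data this test found 8% of batch differences of 1 on the log2 scale and 86% of those of 2. A probe that was not called can therefore still differ between the batches.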

How the data were processed

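Femoral head cartilage RNA, extracted with Trizol and RNeasy and labelled as biotin cRNA, was hybridised to 12 Illumina bead arrays. The authors deposited 1 table, with a raw linear intensity for each of 46632 probes on each array, neither background-subtracted nor normalized, and a detection score for each intensity, whose column name calls it a p-value although it rises with the intensity. The bead summary software is not given in the sources used here. From the raw intensity, background was corrected and arrays were quantile-normalized by neqc in limma 3.58.1 (R 4.3.3; offset 16), with detection p taken as 1 minus the deposited score, and values are given on the log2 scale. A probe was tested if detected at p under 0.05 on at least 4 of 12 arrays, which kept 18200 probes of 14317 symbols.

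The fit had 3 treatments and a block of 4 levels for batch and replicate, following the study's methods, which left 6 residual degrees of freedom. Each value is limma's with Benjamini-Hochberg adjustment over all tested probes. The unused value columns numbered 0. Where a group was undetected on all its arrays, a fold is a lower bound, set per array at the dimmest detected probe, or at the measured value where that was higher.

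The shared response, the gene lists and the comparisons were chosen with earlier results of these data known. Genes were named by rank of the smallest of the 4 differences within batches (12 rises, 12 falls, up to 4 bounds each way, and up to 4 per list and direction), plus Acan, Adamts3, Col2a1, check genes and the probes at the threshold. In lists, a gene is its brightest tested probe, and 867 of 920 listed genes were on the array, 38 by a synonym. The pooled comparison, the shared response rule and the batch difference were run on simulated data with known changes in probes detected on all 12 arrays. Genome build and probe positions were not used, and promoter sequences came from RefSeq (GRCm38.p6). Alternatives were other filters, normalizations, designs, batches alone and leaving out each array.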

Additional observations from a re-analysis of the deposited data

Results flagged for a closer look

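For 8 of the 156 named probes the pooled difference was not the same in the batches by limma's interaction test, and each batch is also a mouse line. The difference was smaller in batch 2 for the rises Il1b (by -1.26, adjusted p = 0.0136), Ccl3 (by -1.27, adjusted p = 0.0226) and Tgm1 (by -0.798, adjusted p = 0.0421). The fall was smaller in batch 2 for Omd (difference 1.02, adjusted p = 0.0238), Col9a1 (0.827, adjusted p = 0.0278) and Itgbl1 (1.19, adjusted p = 0.0091, limma). It was larger in batch 2 for Fmod (-0.99, adjusted p = 0.0364) and Aldh1a3 (-0.982, adjusted p = 0.0201, limma).

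In 6 of 471 groups of 4 arrays, 1 array stood far from the other 3 by Dixon's criterion. For values without a batch shift, chance alone meets it in about 1 of 20 groups. Each group held 2 arrays of each batch, so a shift between batches can hide a distant array, and the count does not show that the arrays are clean. They were Tgfbi (11.38) and Gpc1 (12.48) on untreated batch 2 replicate 2, Slc12a2 (9.278) on untreated batch 2 replicate 1, Cmtm5 (4.762) on retinoic acid batch 1 replicate 2, and Chst11 (7.485) and Tlr4 (8.694) on retinoic acid batch 2 replicate 1, all as log2 intensity.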

How the results depend on the processing

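Of 3845 values of the pooled difference for the 156 named probes over 25 other settings, 3742 kept their direction and their side of the threshold. Another 103 kept the direction and lost the call, and 0 reversed. These values concern the pooled comparison and not membership in the shared response, which 34 of 150 named probes left when some 1 array was left out. With neither batch nor replicate in the model, limma called 1802 probes in the pooled comparison, and the shared response was 176 rises and 398 falls. Treating all 8 treated arrays as 1 arm called 2673 probes, batch 2 alone 3767, and a log2 difference above 1 in addition 932. Asking each of the 4 differences to reach 1 left 42 rises and 176 falls. Leaving out each array in turn gave 4447 to 6102 pooled calls, 702 to 1339 shared rises and 1015 to 1471 shared falls, with 702 rises without untreated batch 1 replicate 1 and 708 without untreated batch 1 replicate 2. Of the shared probes, 44.95% of rises and 59.33% of falls remained in the set whichever array was left out.

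The count of probes whose pooled effect differed between batches was 170 among probes detected on all 12 arrays and ranged from 54 to 736 as arrays were left out. It was 54 and 67 without untreated batch 1 replicates 1 and 2, 175 and 190 without those of retinoic acid, and 148 and 224 without those of IL-1α. In batch 2 it was 736 without untreated replicate 2, 229 without retinoic acid replicate 1, and 123 and 91 without IL-1α replicates 1 and 2.

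Without the replicate block, with batch alone, the pooled calls were 6546, the shared response 1269 rises and 1495 falls, and the batch difference 386 probes. Deviations of arrays with the same number correlated at 0.06, 0.003 and 0.01 in batch 1 and at -0.11, 0.18 and 0.39 in batch 2. The values were near 0 in batch 1 and mixed in batch 2, with 0.39 between retinoic acid and IL-1α. They do not settle whether the numbers pair the arrays. The precision of any value is limited by 12 arrays and, for dim probes, by background. The causes of these movements were not tested.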

Other observations

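Over all genes tested, 6.25% were shared rises and 8.42% shared falls. Of 21 oxidant defence and metallothionein genes, 3 (14.3%) were shared rises and 0 were shared falls. They were Gpx1, a glutathione peroxidase, by 0.60, Mt3, a metallothionein, by 0.74 and Srxn1, sulfiredoxin, by 0.76. Of 40 cell cycle and replication genes, 2 rose with both agents, the cell cycle inhibitor Cdkn1a by 1.29 and the replication licensing factor Cdt1 by 0.72, and 2 fell, Ccnd2, a D-type cyclin, by 1.16 and Mcm6, a helicase subunit, by 0.99. Of 21 interferon-stimulated genes 1 rose, Rsad2 by 1.20, and 1 fell, Ifit2 by 0.52, above background on 2 of 4 arrays with each agent. Of 26 genes of glycolysis and the hypoxia response 3 (11.5%) fell, Car12, a carbonic anhydrase, by 1.08, Ndrg1 by 0.82 and Pfkm, a phosphofructokinase, by 0.38. Of 15 transporters and channels 3 (20%) fell, among them the potassium channel Kcnma1 by 1.16. When 1 array was left out, Cdkn1a (retinoic acid adjusted p = 0.0978 without retinoic acid batch 2 replicate 2), Cdt1 (IL-1α 0.134 without IL-1α batch 1 replicate 2), Ifit2 (retinoic acid 0.126 without retinoic acid batch 1 replicate 2), Ndrg1 (IL-1α 0.0987 without untreated batch 1 replicate 2) and Pfkm (IL-1α 0.0898 without untreated batch 1 replicate 1) left the shared set by limma.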
